A study of Drosophila melanogaster with 3 samples.

Results

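The 8 genes described here are elav, fne and Rbp9, which form the elav family, and brp, Syt1, nSyb, para and futsch, which serve the synapse, the axon and the firing of neurons. They were taken by name, 8 of 13945 protein-coding genes, and each was examined from 5 kb upstream of its outermost start to 2 kb past its end. The data are binding sites of the zinc finger protein CG8159 in Drosophila melanogaster, mapped by chromatin immunoprecipitation and sequencing (ChIP-seq) in whole pupae aged 24 hours, males and females pooled. The 3 biological replicates form 1 group of a transgenic line that carries CG8159 with green fluorescent protein (GFP) at its C terminus. The precipitation used an anti-GFP antibody per the sample description, while the antibody label names CG8159. All samples carry the tag, and no second condition is compared. The values are 5 lists of peaks: a list for each replicate, a list called on the replicates pooled, and the pooled peaks that passed a cutoff on the irreproducible discovery rate (IDR). In each list a peak has a summit, the base of highest signal, and a rank by signal, with rank 1 the strongest.

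The elav family encodes neuronal RNA-binding proteins that act on splicing and on the choice of polyadenylation site, and elav itself is the standard marker of fly neurons. brp encodes Bruchpilot, a scaffold protein of the active zone where vesicles fuse. Syt1 encodes synaptotagmin, the calcium sensor of fusion, and nSyb encodes neuronal synaptobrevin, the vesicle SNARE protein. para encodes the voltage-gated sodium channel of fly neurons and futsch a microtubule-associated protein of axons and synaptic terminals. Whole pupae hold neurons among all other tissues, so the number of cells that carry a site and the binding in each cell cannot be told apart. Peak lists hold no expression values, so the makeup of the tissue was not checked against markers.

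The windows of the 8 genes held 19 of the 10239 IDR summits and 38 of the 30000 pooled summits, over 312.2 kb in all. Every gene had at least 1 IDR summit, where 50.5% of all protein-coding genes did, and the windows of these genes are long. Among the 2473 protein-coding genes whose span is at least that of nSyb, the shortest of the 8, the share was 75.7%. The reference sequence at the strongest IDR summit of elav, fne, Rbp9, Syt1, nSyb, para and futsch is given here, with other summits of the elav family that the results return to. Each window is centred on the summit and read 5′ to 3′ on the strand of the named gene, from the RefSeq release 6 assembly (dm6). Positions are relative to the nearest start site of the same gene, and no window includes an annotated exon. Capitals mark matches to the 9 motifs listed after the sequences, on either strand.

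elav, 259 bp upstream, chrX:523435-523535, minus strand: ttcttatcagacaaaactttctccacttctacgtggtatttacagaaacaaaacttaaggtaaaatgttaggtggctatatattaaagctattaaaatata
elav, 512 bp downstream, chrX:522664-522764, minus strand: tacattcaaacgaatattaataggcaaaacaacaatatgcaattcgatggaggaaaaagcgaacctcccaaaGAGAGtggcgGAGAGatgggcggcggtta
fne, 3551 bp upstream, chrX:12913876-12913976, plus strand: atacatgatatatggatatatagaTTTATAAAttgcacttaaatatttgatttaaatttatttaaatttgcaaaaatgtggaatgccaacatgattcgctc
fne, 533 bp upstream, chrX:12937934-12938034, plus strand: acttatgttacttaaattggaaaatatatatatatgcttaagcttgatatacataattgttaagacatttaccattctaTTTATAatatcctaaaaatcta
Rbp9, 850 bp downstream, chr2L:2957711-2957811, plus strand: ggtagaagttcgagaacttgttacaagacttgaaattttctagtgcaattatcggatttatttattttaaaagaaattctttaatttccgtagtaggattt
Rbp9, 368 bp upstream, chr2L:2956493-2956593, plus strand: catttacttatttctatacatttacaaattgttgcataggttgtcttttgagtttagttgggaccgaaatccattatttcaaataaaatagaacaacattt
Syt1, 2733 bp upstream, chr2L:2802662-2802762, minus strand: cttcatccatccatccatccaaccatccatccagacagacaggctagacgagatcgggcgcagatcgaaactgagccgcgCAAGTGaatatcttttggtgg
nSyb, 1805 bp upstream, chr3L:1639507-1639607, minus strand: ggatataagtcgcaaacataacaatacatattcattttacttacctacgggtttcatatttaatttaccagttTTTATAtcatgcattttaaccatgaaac
para, 4494 bp upstream, chrX:16537540-16537640, minus strand: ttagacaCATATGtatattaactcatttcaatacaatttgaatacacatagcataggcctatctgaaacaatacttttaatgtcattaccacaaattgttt
futsch, 273 bp upstream, chrX:1411403-1411503, plus strand: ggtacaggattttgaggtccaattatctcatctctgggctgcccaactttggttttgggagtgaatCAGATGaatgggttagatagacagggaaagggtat

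The windows were mostly rich in A and T. Their share over the 19 IDR summits had a median of 72.3%, against 70.3% over all 10239 IDR summits, whose quartiles were 63.4% and 74.3%. The lowest value, 42.6%, was at the outer Syt1 site and the highest, 83.2%, at a weak fne intron site, 6225 bp downstream of a start site. The strongest site of the set, at elav, and both Rbp9 sites held none of the motifs. Searched on both strands, GAGAG, bound by GAGA factor, was in 2 of the 19 windows and in 9.63% of all IDR windows. TATAAA, the TATA box, was in 5 of 19 and 25.1%. The E-box CANNTG was in 6 of 19 and 30.9%, a count that would include its palindrome CACGTG, which was in 0 of 19 and 0.391%. The A tract AAAAAA was in 3 of 19 and 31.8%, and the repeat CACACA in 1 of 19 and 6.38%. TATCGATA, the DNA replication-related element, was in none of the 19 windows and in 0.508% of all. GGTCACAC, the core of motif 1, was in none and in 0.576%, and CAGGTA, the core bound by Zelda, in none and in 1.48%. These matches describe letters in the window and show no binding by the factors named.

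The promoter site of elav was the strongest of the 19 IDR sites inside the windows. It lay on chrX:523290-523687 with its summit 259 bp upstream of the 5′ start of elav, a start shared with the noncoding gene lncRNA:enrr, and inside an intron of arg, which runs through the locus on the other strand. Its signal, a value the peak caller assigned and the authors deposited, was 4328, at rank 240 of the pooled list. It ranked 242 in replicate 1, 236 in replicate 2 and 217 in replicate 3, a mean of 232 ± 13.1 (SD, n = 3). The summits of the 3 replicates lay at most 9 bp from the pooled one. This was the tightest agreement in rank and position among the elav sites.

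elav had 2 further IDR summits, both weaker. A summit in the 5′ intron, 512 bp downstream of the same start, had signal 480 and ranked 5837, 4126 and 6955 in replicates 1, 2 and 3. It lies just past the 500 bp within which a summit was counted as a promoter summit, and in replicate 3 the peak there had its own summit within that distance. A summit 1348 bp upstream had signal 249 and rank 10128, close to the end of the IDR list, with ranks of 9942, 10170 and 11799. Sites on both flanks of the start were thus present in each replicate, with the upstream promoter summit far above them in rank. Outside the IDR list, the pooled list had a summit 3430 bp upstream (signal 92) and another 1257 bp into the gene (signal 67). The replicate 3 list had no peak at either, and the replicate 2 list had none at the one inside the gene.

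Rbp9, which is expressed in neurons and in the female germ line, held the next strongest site of the windows. Its gene covers 13.7 kb on 2L and has 3 start sites. The stronger summit, at chr2L:2957507-2957930, was intronic, 850 bp downstream of the middle start site, with signal 2572 at rank 697. It ranked 707, 943 and 552 in replicates 1, 2 and 3. The other, at chr2L:2956403-2956573, lay 368 bp upstream of that start site, with signal 987 at rank 2658 and ranks of 2588, 3210 and 2489. It is a promoter summit of the middle start and at the same time intronic to transcripts from the outer one. All replicates held both peaks, and the stronger was ahead in each. The outermost start of Rbp9 had no summit within 500 bp in the IDR or pooled list. A pooled summit 1047 bp upstream of the middle start had signal 136 and was overlapped by a peak of every replicate.

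fne, a family member expressed in neurons, had the most sites and no strong one. Its 32.9 kb on X held 5 IDR summits and its upstream flank 1, with signals from 250 to 661. The flank site was the strongest, 3551 bp upstream of the outermost start, with ranks of 4140, 5381 and 3435, and its nearest start site was that of the noncoding gene lncRNA:CR45626, 918 bp away. Inside the gene, a summit 533 bp upstream of an internal start had signal 569 and ranks of 5259, 5594 and 4129. Another, 1163 bp upstream of the innermost start, had signal 516 and ranks of 5166, 5931 and 5561. These 3 sites were held by the strongest peaks of all replicates and differed little in rank.

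The remaining fne summits lay in the long 5′ intron, which runs from the outer exons to the internal starts. The summit 8653 bp downstream of an outer start (signal 335) ranked 9501, 6604 and 5777. The summits 8110 bp upstream of an internal start (signal 291) and 6225 bp downstream of an outer start (signal 250) fell to ranks 12965 and 15092 in replicate 2, outside its strongest 10239 peaks. At the outermost fne promoter the pooled list had a pair of overlapping peaks below the IDR limit, only the stronger of them close to it. Their summits lay 571 bp upstream (rank 10446, signal 240) and 371 bp upstream (rank 13710, signal 173), and the best replicate peak over them ranked 11871, 9741 and 10830. By the weaker peak, fne therefore counts as having a promoter summit in the pooled list and not in the IDR list.

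Among the synaptic genes, 0 of brp, Syt1 and nSyb had an IDR summit within 500 bp of a start site. brp lies on 2R and covers 37.8 kb. Its strongest summit, 4912 bp upstream of the gene at chr2R:9498660-9499049, had signal 1123 and ranked 1774, 2874 and 2938 in replicates 1, 2 and 3. This summit lay in an intron of the neighbouring Wnt2, which encodes a secreted signalling protein, and a Wnt2 start site was the nearest. A weaker summit 3778 bp upstream, also inside Wnt2, had signal 338 and ranks of 8896, 8061 and 7699. The only IDR summit within brp itself was intronic, 2654 bp upstream of an internal start, with signal 252. It ranked 9689 and 7987 in replicates 1 and 3 and 19644 in replicate 2. Replicate 3 alone had a peak of rank 5611 just past the 3′ end of brp, which no peak of the pooled list or of the other replicates overlapped.

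Syt1 and nSyb had IDR summits upstream of the gene and none within it. The Syt1 summits lay 2733 bp upstream (signal 408) and 4759 bp upstream (signal 349), and all replicates held both. For each the nearest start site was that of daw, which encodes an activin-like ligand, at 2549 and 523 bp. Under the IDR limit, a pooled peak had its summit 202 bp upstream of the outer Syt1 start, with signal 168 and ranks of 16441, 12543 and 14123 in the replicates. A promoter summit of Syt1 was thus present in every replicate list, in a middle part of the ranks. The nSyb site, at chr3L:1639429-1639661, had signal 1007 and ranks of 2799, 3064 and 2196. It was 1805 bp upstream of nSyb and 154 bp upstream of the start of Bgb, which encodes a partner of Runt-domain transcription factors and is transcribed in the other direction. By its nearest start site it is a promoter summit of Bgb.

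para and futsch, the longest of the 8 genes, had 1 IDR summit each. para covers 78.1 kb, and its summit lay 4494 bp upstream, with signal 309. It ranked 11255 in replicate 2 and 6238 in replicate 3, and no peak of replicate 1 overlapped it, the weakest replicate support of the 19 sites. A pooled peak 1837 bp upstream of para, at rank 10450 and with signal 240, was overlapped in all replicates, at ranks 12042, 13527 and 8361. No IDR summit lay within para. The pooled list had 2 there, 950 bp into the gene (signal 84) and in the 3′ UTR of 1 of its 60 transcripts (signal 209), and 73.4 kb between them without a summit. The 3′ UTR summit was at the same base in the pooled list and in replicates 2 and 3, and replicate 1 had no peak there.

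The futsch summit lay 273 bp upstream of its middle start site, in an intron of the transcript from the outermost start, at chrX:1411245-1411660 with signal 368. It ranked 4398 in replicate 3, 9244 in replicate 2 and 10637 in replicate 1. Only in replicate 3 was it well inside the strongest 10239, and in replicate 1 it fell outside. The pooled list had another peak 1169 bp upstream of the gene (rank 10534, signal 238), with ranks of 11046, 11802 and 11052. Past the intronic summit, 42.2 kb of futsch to its 3′ end, including its long coding exons, had no summit in the pooled list. Weak intronic peaks that no pooled peak overlapped lay there in replicate 1 (rank 29646) and replicate 3 (ranks 23131 and 26588).

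**Figure D1:**
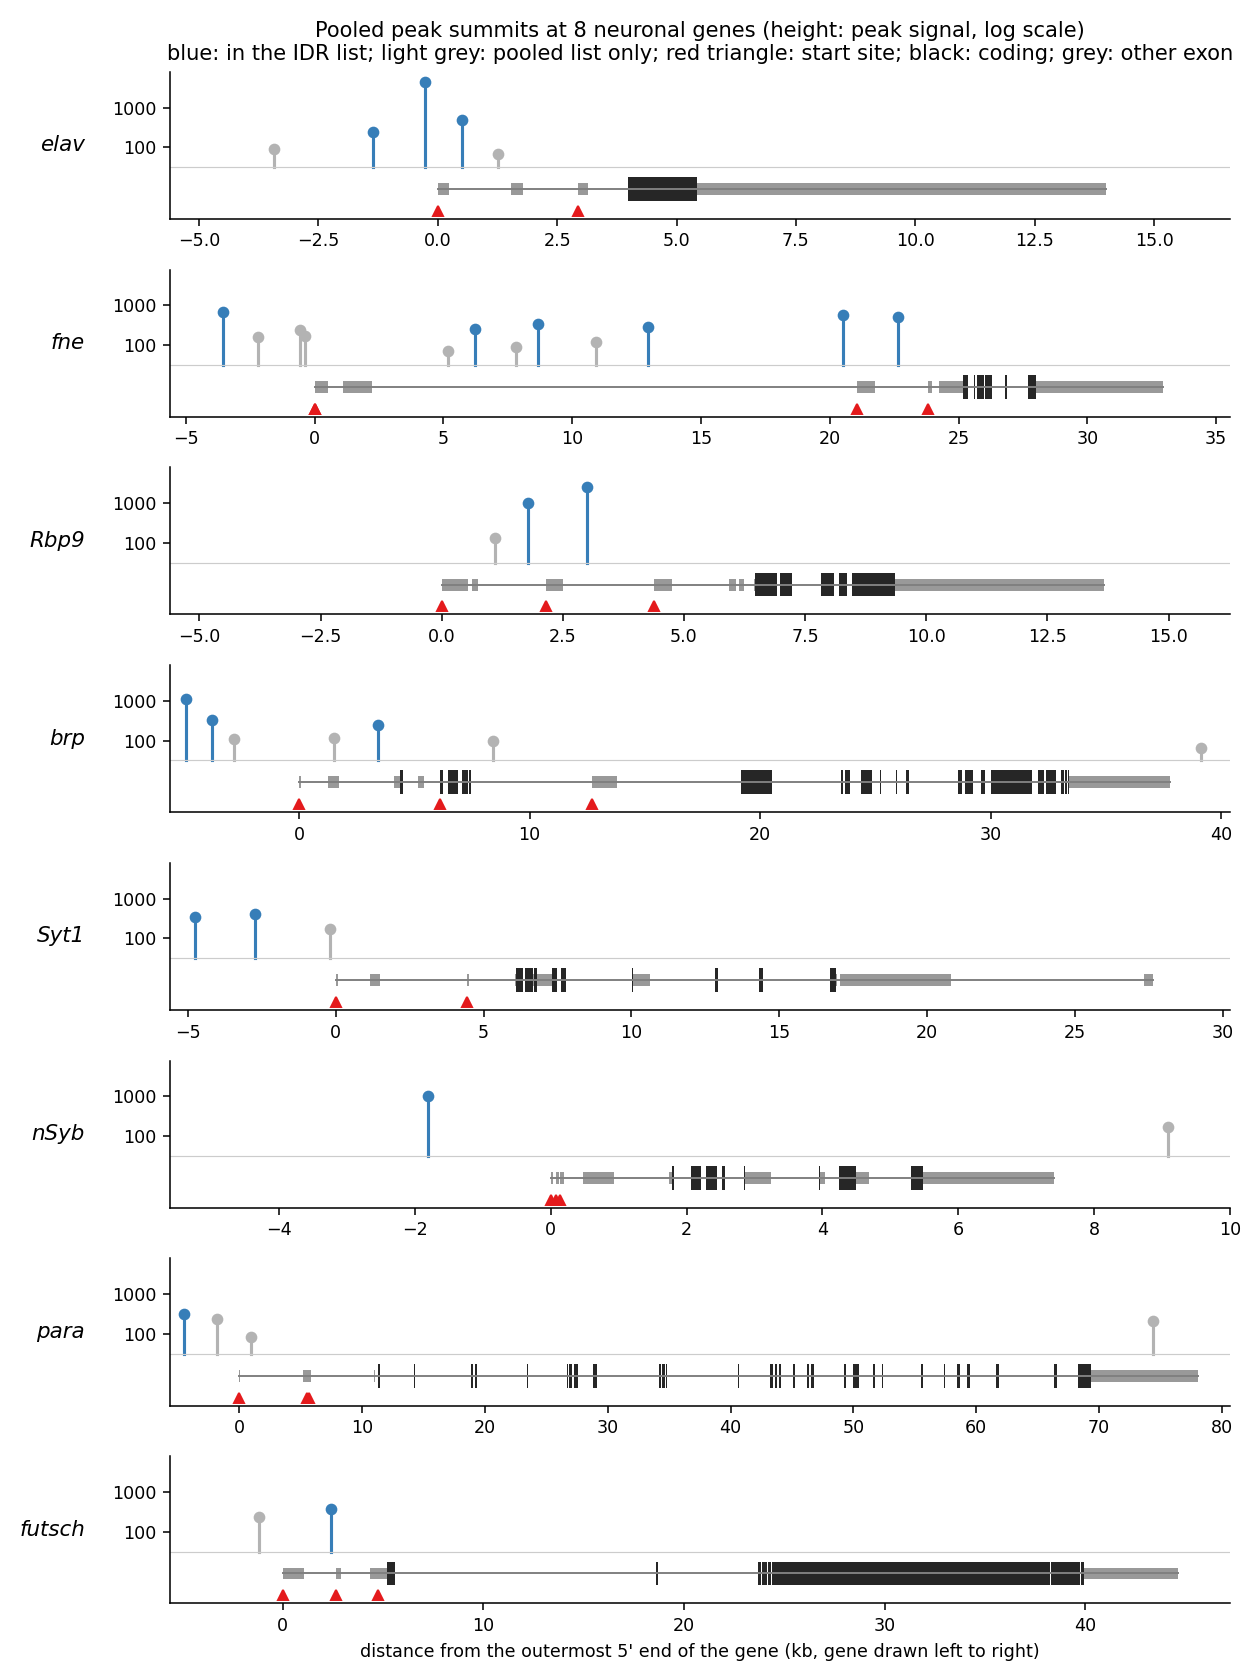
Each panel shows a gene from its outermost 5′ end, in kb, with exons below the line and pooled peak summits above it, their height the peak signal on a log scale (blue, in the IDR list; grey, pooled list only). Summits of elav, fne and Rbp9 stand ahead of the coding exons, and the bodies of Syt1 and nSyb have none.

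Within the gene spans, IDR summits lay ahead of the coding sequence. All 10 IDR summits inside a gene span were intronic and preceded the most upstream coding base of the gene's transcripts, as did 17 of the 19 pooled ones. The exceptions were an intronic summit of brp and the 3′ UTR summit of para. The sequence before that base makes up 61.3 kb, or 23.9% of the spans. In the elav family, whose spans held 8 of the 10 IDR summits, it was 33.4 kb, or 55.2%. In the other genes, whose spans held 2, it was 27.9 kb, or 14.3%. In protein-coding genes at least as long as nSyb, that part made up 27.8% of the spans and held 42.0% of 5427 IDR summits. The position was at a median of 20.4% of the gene's length (range 3.66% to 68.7%), against 35.9% over those 5427 summits. No IDR or pooled summit fell in the 37.0 kb of coding sequence of the 8 genes, where coding sequence outside promoters held 0.146% of all IDR summits. As these genes differ in how much 5′ intron they have, these shares describe the set and were not tested.

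By the annotation of any gene at the summit, with summits within 500 bp of any start site set apart first, 11 of the 19 IDR summits (57.9%, 95% Wilson interval 36.3 to 76.9) were intronic. Over all IDR summits the share was 44.5%, and in the strongest peaks of the replicates it was 64.7%, 43.8% and 45.0% for these genes. A further 4 (21.1%, 95% Wilson interval 8.51 to 43.3) were intergenic, against 21.7% of all IDR summits. The other 4 were promoter summits, of elav, Rbp9, futsch and Bgb. For 13 of the 19 the nearest start site of any gene belonged to the member, and for 6 it belonged to a neighbour, namely lncRNA:CR45626, Wnt2, daw (in 2 cases), Bgb and CG9903. Of the 11 elav family sites 1 had a neighbour's start site as the nearest, and of the 8 sites of the other genes 5 did. The same share over the windows of all genes was not computed, and the difference was not tested.

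Promoter summits were thus found at 3 of the 8 genes in the IDR list, elav, Rbp9 and futsch, where 22.9% of protein-coding genes had one. The share was 39.4% among the 2473 genes at least as long as nSyb. In the strongest 10239 peaks of the replicates the count was 2 in replicate 1 (elav and Rbp9), 4 in replicate 2 (fne also, at an internal start, and futsch) and 3 in replicate 3. In the whole pooled list, Syt1 and fne, the latter at its outermost start, joined these genes, for 5 of 8 against 37.1% of protein-coding genes. The pooled share among genes at least as long as nSyb was not computed. brp, nSyb and para had no promoter summit in the pooled list. The IDR count rests on the distance of 500 bp, since the elav, futsch and Rbp9 summits lay 259, 273 and 368 bp from a start, and within 250 bp there were 0.

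Density separated the elav family from the other genes. The windows of elav, fne and Rbp9 had 11 IDR summits in 81.6 kb, or 1.35 per 10 kb, and the other 5 genes had 8 in 230.5 kb, or 0.347 per 10 kb. Over the windows of all 8 genes the density was 0.609 per 10 kb. This was below the 0.765 of the 6 chromosome arms and the 0.836 summed over windows of all protein-coding genes. In the strongest peaks of the replicates the family had 1.27 ± 0.0707 and the other genes 0.318 ± 0.100 (mean ± SD, n = 3), and the ranges did not overlap. By gene the IDR density was 1.502 in fne, 1.43 in elav and 0.967 in Rbp9, followed by nSyb (0.694), brp (0.670), Syt1 (0.577), futsch (0.194) and para (0.118). In the strongest peaks of the replicates fne had 1.42 ± 0.145, elav 1.27 ± 0.275, nSyb 0.694 ± 0 and brp 0.670 ± 0.223 (mean ± SD, n = 3). This SD shows only how steadily a gene's summits recur between replicates, and for nSyb each replicate had 1. It does not measure counting error, and differences between single genes were not tested. Over genes at least as long as nSyb the median was 0.660, with quartiles of 0.138 and 1.40. By IDR density fne and elav lay above the upper quartile and para below the lower one. Rbp9, nSyb, brp, Syt1 and futsch lay between them. The replicate mean of elav, 1.27, was below the upper quartile, with 0.953 in replicate 3, and fne was below it in replicate 2 (1.25). The counts behind these densities are small, from 1 to 6 a gene. Within the gene spans alone the contrast was larger, with 8 IDR summits in 60.6 kb for the family and 2 in 195.5 kb for the other genes. All of these summits preceded the most upstream coding base. The part of the spans before that base was 33.4 kb for the family and 27.9 kb for the other genes. Over that part the contrast was smaller than over the whole spans, and it was not tested.

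**Figure D2:**
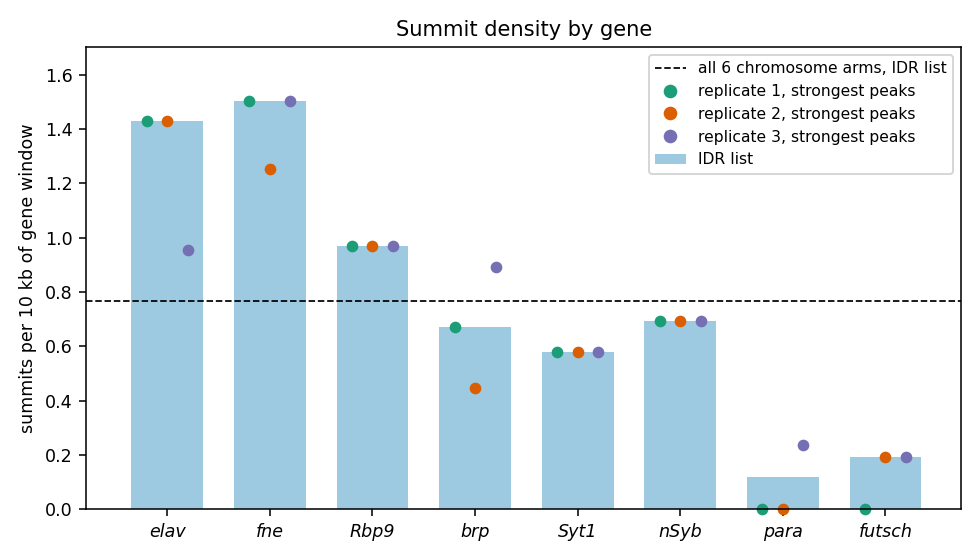
Bars give IDR summits per 10 kb of each gene's window, from 5 kb upstream to 2 kb past the gene, and points the same for the strongest 10239 peaks of each replicate. The 3 elav family genes stand above the dashed line of all chromosome arms (0.765) in the IDR list and in each replicate, and the other genes below it except for brp in replicate 3 (0.893).

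Replicates held most of these sites. The strongest 10239 peaks of all 3 replicates overlapped 13 of the 19 IDR peaks (68.4%, 95% Wilson interval 46.0 to 84.6), against 78.3% of all IDR peaks. Another 5 were held by 2 replicates and 1, at para, by 1. The 6 sites not held by all had signals from 249 to 368, and the median signal of the 19 was 408 against 526 over the IDR list. In every replicate the elav promoter site ranked ahead of the others and the Rbp9 downstream site came next. The sites 4912 bp upstream of brp, 368 bp upstream at Rbp9 and at Bgb changed order between replicates. With every peak of each replicate taken, 18 of the 19 were overlapped in all. The largest distance between a pooled summit and that of the best replicate peak was 108 bp, at a weak fne site. Of the 19 pooled peaks outside the IDR list, 12 were overlapped in all replicates, 5 in 2 and 2 in 1, and over the genome 56.8% of such peaks were overlapped in all. A width of 416 bp, the commonest in the IDR list, was found in 11 of the 19 and is not read as an extent of binding.

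**Figure D3:**
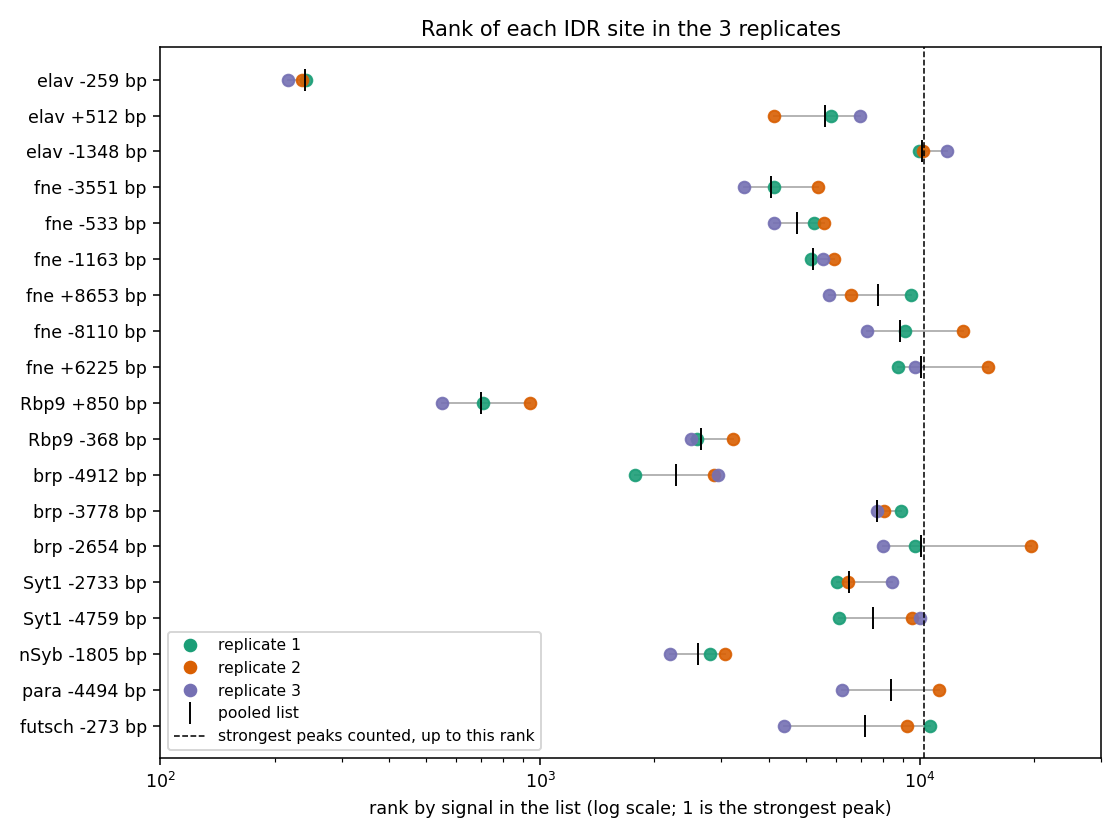
Points give the rank by signal, on a log axis, of the best peak of each replicate over each of the 19 IDR sites, named by gene and distance to its nearest start site, with a bar for the pooled rank and a dashed line at rank 10239. The elav promoter site lies at 217 to 242 in all replicates, and the para site is missing in replicate 1.

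The window edges set how many sites are counted, and a window from 10 kb upstream to 5 kb past each gene held 27 IDR summits in place of 19. The outermost summits inside the windows were those 4912 bp upstream of brp and 4759 bp upstream of Syt1. Just outside, a summit of signal 1102 lay 310 bp beyond the window past the 3′ end of Syt1, one of signal 369 lay 1354 bp beyond the upstream edge of Syt1, and one of signal 828 lay 1744 bp beyond the upstream edge of brp. Strong summits lay further out. One of signal 2413 at rank 792 lay 2292 bp past the Rbp9 window, one of signal 3264 at rank 425 lay 2585 bp beyond the upstream edge of nSyb, and one of signal 6698 at rank 70 lay 3627 bp past the brp window. The last of these was stronger than the elav promoter site, the best inside the windows at rank 240.

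The genes whose promoter peaks ranked most like that of elav in the 3 replicate lists were sought among 3012 protein-coding genes with a promoter IDR peak overlapped in every replicate. The sum of absolute rank differences over the 3 replicates was 55 for CG32022 and for CG6511, which share a peak of signal 4384 between their starts, with ranks of 240, 251 and 179. It was 59 for Rab5, which encodes a small GTPase of early endosomes, with signal 4424 and ranks of 245, 187 and 224. The Rab5 summit lay 251 bp upstream of a start, close to the 259 bp at elav. A likeness in rank shows nothing of shared function.

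A wider list of 119 genes of neural function, written by role, gave the setting for these 8. It is called neuronal here for short, but it also holds the glial marker repo and the neuroblast markers dpn and ase. Of the 119 genes, 25 (21.0%, 95% Wilson interval 14.7 to 29.2) had a promoter IDR summit, near the 22.9% of all protein-coding genes. Most genes of the list are at least as long as nSyb, and among all protein-coding genes of that length the share was 39.4%. An IDR summit anywhere in the window was found for 74 of the 119 (62.2%). The share was 50.5% of all protein-coding genes and 75.7% of those at least as long as nSyb. The counts differed by role, without a test. Genes for neural RNA-binding proteins, the role nearest to the elav family, had 5 of 9, the strongest at orb2, a translational regulator of memory (signal 2692, 390 bp upstream), Syp, the syncrip homologue (1630, 213 bp upstream), and mub (423, 56 bp upstream), while bru3 and Fmr1 had none. All 9 but 1 had a summit in the window, with a median of 4, a count that grows with gene length. Their median density was 0.898 per 10 kb, between the quartiles of 0.138 and 1.40 over genes at least as long as nSyb.

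Counts for genes of the synapse and of excitability varied between roles. None of 7 further active zone genes had a promoter summit, cac, the presynaptic calcium channel gene, and Fife included, nor any of 20 transmitter receptor genes, such as Dop1R1 and GluClalpha. Of 16 genes of vesicle fusion 2 did, Sytbeta (signal 538) and Syx1A, the syntaxin gene (287), while alphaSnap and comt did not. Of 13 genes of transmitter synthesis and loading 1 did, Tbh, which encodes the enzyme that makes octopamine (363), while ChAT and DAT did not. Vesicle recycling genes had 4 of 9, led by AP-2alpha (1171) and by stnA and stnB, which share a locus and a peak (436), while Dap160 and Eps-15 had none. For ion channels the count was 3 of 15, with sei (858), the sodium channel paralogue NaCP60E (520) and Ih (420), and without Ca-alpha1D and Ca-alpha1T.

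Genes of the axon and cytoskeleton had a promoter summit in 7 of 18 cases, led by Nrx-1, the neurexin gene (1149), Nlg2, a neuroligin gene (761), and unc-104, a kinesin gene (479), and not at Ank2 or Appl. Regulators of neural fate had one in 3 of 12, at lola (2845), brat (473) and nerfin-1 (443), and not at ase or chinmo. The elav promoter signal of 4328 was above that of each of the 25 genes. These role groups are small and their genes differ in length and number of start sites. No difference between groups was tested.

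**Figure D4:**
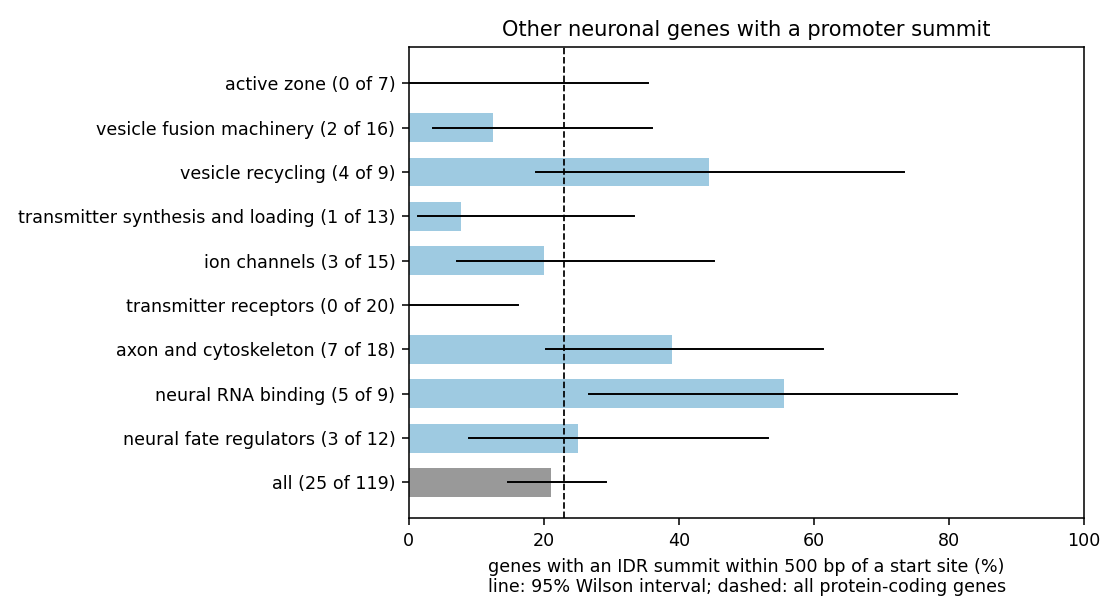
Bars give the percentage of genes in each role group with an IDR summit within 500 bp of a start site, with 95% Wilson intervals for counting error and the share of all protein-coding genes (22.9%) as a dashed line. Transmitter receptors (0 of 20) and active zone genes (0 of 7) are at 0, and neural RNA-binding genes (5 of 9) are highest.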

How the data were processed

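The analysis used 5 peak lists on dm6, built, per the deposited file descriptions, from the alignments of 3 replicates and 1 shared control, each replicate a separate biological sample of 1 fly line. Not given in the sources used here: caller, aligner, filters. Peaks were ranked within a list by the signal that the authors deposited. The −log10 q-value column, also deposited by the authors, was read but ranks nothing here. Read depth is unknown. The IDR rows equalled the 10239 pooled rows of highest signal, and no peak ran past an arm's end in the RefSeq release 6 assembly.

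Genes came from Ensembl release 115, without transposable elements, on 6 chromosome arms. A promoter summit lay within 500 bp of a start site. A replicate held a peak when one of its strongest 10239 overlapped it by at least 1 bp. Scripts ran in Python 3.11.15 with numpy 2.4.6, scipy 1.17.1 and matplotlib 3.10.9, and were tested on simulated data. Wilson intervals cover counting error only. With 1 group, no test was run on the genes. Every IDR summit of the 8 genes was named, with neighbours whose start was nearest, and for other neuronal genes the 3 of highest signal and the first 2 unoccupied by alphabet in each role, and the 3 genes nearest to elav in rank. The 8 genes, the wider list and the motifs were chosen with earlier results of these data known.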

Additional observations from a re-analysis of the deposited data

How the results depend on the processing

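The number of genes with a promoter summit, 3 of 8, was 0 at a promoter distance of 250 bp (17.7% of protein-coding genes), 5 in the whole pooled list and 1, elav, when only the outermost 5′ end was taken. At 1000 bp it was 4 (27.4% of protein-coding genes). Here a replicate is left out by keeping only the IDR peaks that the 2 other replicates held. The IDR list itself still rests on all 3, so this is an added filter. Under it the number of genes with a promoter summit was 2 to 3 (19.2% to 19.6% of protein-coding genes). The 19 summits became 10 in gene bodies only, 7 in the 5119 IDR peaks of highest signal and 38 in the pooled list, and 14 to 16 without a replicate. The 13 peaks held by all replicates became 5 when each gave its strongest 5119 peaks, and 14 to 16 when a replicate was left out. The intronic share was 73.7% with no promoter class, and 50% to 62.5% without a replicate. Density over the 8 genes fell from 0.609 to 0.224 per 10 kb in the IDR peaks of highest signal (arms 0.382) and to 0.390 in gene bodies. It was 0.448 to 0.513 without a replicate, a filter under which the density of the arms was not computed. The 25 other neuronal genes became 14 at 250 bp and 8 in the IDR peaks of highest signal (13.5% of protein-coding genes), and 20 to 22 without a replicate. Fewer peaks or a narrower distance give lower counts by construction. No paired analysis was possible because there is 1 group. The lack of read numbers limits what a missing peak shows.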
